A study of Homo sapiens with 43 samples.

Results

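GM12878 is an established human lymphoblastoid line made from B cells with Epstein-Barr virus. Its cells were exposed to interferon gamma (IFNg) in the presence of an inhibitor of the BAF chromatin remodellers, and the RNA response that remained was measured by sequencing. The comparison is of 2 libraries given BRM014 and then IFNg for 6 h with 2 libraries given BRM014 and then the vehicle for 6 h, chosen from the sample titles as 4 of the 43 libraries of the series. All 4 libraries came from cells that received 10 µM BRM014, an inhibitor of SMARCA4 and SMARCA2 dissolved in DMSO, 30 min before the stimulus. IFNg was used at 100 ng/mL. The matched groups that had DMSO in place of BRM014, also at 6 h, and the BRM014 groups sampled at 1 h, each with 2 libraries, served for comparison, and a separate panel of GM12878 libraries without BRM014 supplied a list of IFNg-responsive genes. Nothing in the labels says that the replicates came from separate cultures; a p-value here therefore covers the spread between these libraries, and that spread may be technical.

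IFNg binds a receptor made of IFNGR1 and IFNGR2, and the attached kinases JAK1 and JAK2 activate transcription factors that bind GAS elements in DNA. A first set of genes then switched on includes IRF1, whose protein, with complexes that hold STAT2 and IRF9, acts through ISRE elements on a later set. In B cells, which present antigen, the later genes include the peptide transporter TAP1, immunoproteasome subunits and guanylate-binding proteins. BAF complexes use ATP to move nucleosomes and open enhancers and promoters.

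The promoters of 5 responsive genes are shown because they carry these elements next to start sites. Their estimated responses under BRM014, set beside those in DMSO, also varied. A difference between the arms passed the main interaction test only for WARS1. Each line gives the 200 bases before an annotated start from RefSeq (GRCh38.p14), 5′ to 3′ on the gene's strand, with capitals marking GAS (TTCNNNGAA) or ISRE (GAAA, any 2 bases and GAAA, or TTTC, any 2 bases and TTTC on the other strand) matches. Both motifs were searched on both strands, and matches can overlap, as the pair in TAP1 does. IRF1 (chr5:132490774-132490973, minus strand) holds a GAS match, and TAP1 (chr6:32853705-32853904, minus strand) holds 2 ISRE matches at one of its 2 starts in the table. The other TAP1 start, not printed, has a GAS match (TTCTGGGAA) 189 to 181 bases before it. EPSTI1 (chr13:42992242-42992441, minus strand) holds a GAS and an ISRE match that overlap. WARS1 (chr14:100375348-100375547, minus strand) holds 1 of each at one of its 2 starts in the table, and CXCL9 (chr4:76007510-76007709, minus strand) holds an ISRE match.
IRF1: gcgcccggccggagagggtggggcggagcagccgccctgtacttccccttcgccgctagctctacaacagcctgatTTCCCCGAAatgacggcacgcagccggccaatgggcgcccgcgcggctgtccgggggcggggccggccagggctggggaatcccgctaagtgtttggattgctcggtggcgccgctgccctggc
TAP1: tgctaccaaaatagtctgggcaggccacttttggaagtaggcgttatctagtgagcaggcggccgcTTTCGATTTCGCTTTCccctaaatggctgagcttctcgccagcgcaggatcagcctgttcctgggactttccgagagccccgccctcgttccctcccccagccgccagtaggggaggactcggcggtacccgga
EPSTI1: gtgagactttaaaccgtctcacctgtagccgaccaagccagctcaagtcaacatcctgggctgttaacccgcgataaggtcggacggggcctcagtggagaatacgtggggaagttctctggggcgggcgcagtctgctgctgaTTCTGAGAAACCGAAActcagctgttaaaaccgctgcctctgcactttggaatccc
WARS1: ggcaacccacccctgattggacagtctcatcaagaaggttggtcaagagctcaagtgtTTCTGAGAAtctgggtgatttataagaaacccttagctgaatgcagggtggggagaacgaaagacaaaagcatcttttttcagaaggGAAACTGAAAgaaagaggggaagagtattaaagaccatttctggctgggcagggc
CXCL9: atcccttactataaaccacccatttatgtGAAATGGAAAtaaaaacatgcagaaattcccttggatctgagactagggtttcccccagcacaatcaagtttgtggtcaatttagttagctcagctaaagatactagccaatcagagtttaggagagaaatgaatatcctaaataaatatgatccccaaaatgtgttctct

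The 6 h BRM014 libraries held 14.5 to 16.8 M counts, and all 24 libraries of the pretreatment experiment held 12.9 to 22.3 M. The cells carried B cell RNA: 6 B cell markers summed to 1179 to 1190 CPM (counts scaled to library size) with IFNg and to 1202 to 1205 CPM with vehicle. Sums of markers use plain library totals, while the CPM values of single genes also carry TMM factors. The 6 T cell markers summed to 38.9 to 42.8 CPM with IFNg and 43.05 to 46.3 CPM with vehicle, although CD3D and CD3G were at 0 in all 4 libraries. The monocyte markers together stayed under 1 CPM (0.558 to 0.956 with IFNg, 0.345 to 0.596 with vehicle), with CD163 and S100A8 at 0. The 6 hepatocyte markers summed to 1.24 to 1.37 CPM with IFNg and 1.03 to 2.21 CPM with vehicle. The RNA of the inhibitor's targets was SMARCA4 at 264 and 259 CPM with IFNg against 264 and 279 CPM with vehicle, and SMARCA2 at 532 and 550 CPM against 496 and 525 CPM; neither difference passed the test (edgeR adjusted p = 0.832 and 0.599). RNA levels do not measure whether the ATPases were inhibited. Of the libraries used for comparison, DMSO with IFNg at 6 h replicate 1 stood apart from replicate 2 (-5.41 against -18.4 on the first principal component, which held 34.5% of the variance). The count of interactions, the slope between the arms and some single interactions are also given with libraries of this group left out. Other results that use this group, such as shared rises, list counts, levels and promoter shares, are given with both libraries only. The DMSO vehicle pair at 6 h also differed beyond sampling noise. Its chi-square per degree of freedom was 7.28, against 5.94 for the DMSO IFNg pair, so both groups of the DMSO arm held libraries that differ.

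Under BRM014, IFNg changed a mostly rising set of genes at 6 h. Of 15183 genes tested, 269 passed the test (1.77%; edgeR quasi-likelihood, Benjamini-Hochberg adjusted p under 0.05), of which 228 rose (1.50%) and 41 fell (0.270%). Rises of over 2-fold numbered 58 (0.382%) and falls of that size 0 (0.00%), with 1398 genes at an unadjusted p under 0.05. The median log2 fold change over all genes tested was -0.0137. In all 228 genes that rose and all 41 that fell, both IFNg libraries lay beyond both vehicle libraries. The genes were called on these same libraries, so the separation describes the calls and is no further support for them. Among the 228 were 77 of the 132 tested members of the 9 interferon lists. Without BRM014 vehicle replicate 1 the count of called genes dropped to 170, and the highest count with 1 library left out was 211. In DMSO IFNg changed 1005 genes at 6 h (6.62%), with 527 rising (3.47%), 84 of them by over 2-fold (0.553%), and 478 falling (3.15%); without DMSO vehicle replicate 2 this count dropped to 663.

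Genes that carry the signal from the receptor were among those that rose. STAT2, of the ISRE-binding complex, was at 291 and 257 CPM with IFNg and at 109 and 104 CPM with vehicle. The groups did not overlap, and the rise was log2 1.36 ± 0.13 (edgeR adjusted p = 1.78e-05), beside 1.02 in DMSO. STAT3 rose by 0.68 ± 0.05, from 288 and 301 CPM to 456 and 484 CPM, and the DNA-binding member of the ISRE complex, IRF9, by 0.37. JAK2 was at 63.2 and 62.2 CPM with IFNg and 47.7 and 49.2 CPM with vehicle (log2 0.37 ± 0.08, adjusted p = 0.00378); leaving out BRM014 vehicle replicate 1 (0.35) or BRM014 IFNg replicate 1 (0.36) ended that call. The ligand-binding receptor chain IFNGR1 fell, from 121 and 119 CPM to 90.7 and 98.5 CPM (log2 -0.35 ± 0.06, adjusted p = 0.000227). JAK1 (log2 -0.05) and IFNGR2 (log2 -0.16) did not pass the test. In all, 5 of 8 receptor, JAK and STAT genes rose and 1 fell, with a list median of 0.37 against -0.0137 over all genes.

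IRF1, the first-wave transcription factor whose promoter carries the GAS match printed above, was at 294 and 292 CPM with IFNg and at 36.8 and 44.1 CPM with vehicle. Its rise was 7.22-fold with no overlap (log2 2.85 ± 0.19, edgeR adjusted p = 8.98e-07). The response in DMSO was log2 2.40, from 70.3 and 75.5 CPM to 338 and 432 CPM, so the IFNg level under BRM014 lay below both DMSO libraries. The difference between the responses was 0.45 and did not pass the test (adjusted p = 0.714). Of 9 interferon regulatory factors 5 rose (list median 0.37): IRF1, IRF8 (log2 0.86), a B cell and myeloid factor, IRF7 (0.59), which drives type I interferon genes, IRF2 (0.49) and IRF9. IRF5 was called in DMSO (log2 0.50) and not under BRM014 (0.13), and the difference passed the interaction test (log2 -0.37, edgeR adjusted p = 0.0401).

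**Figure D1:**
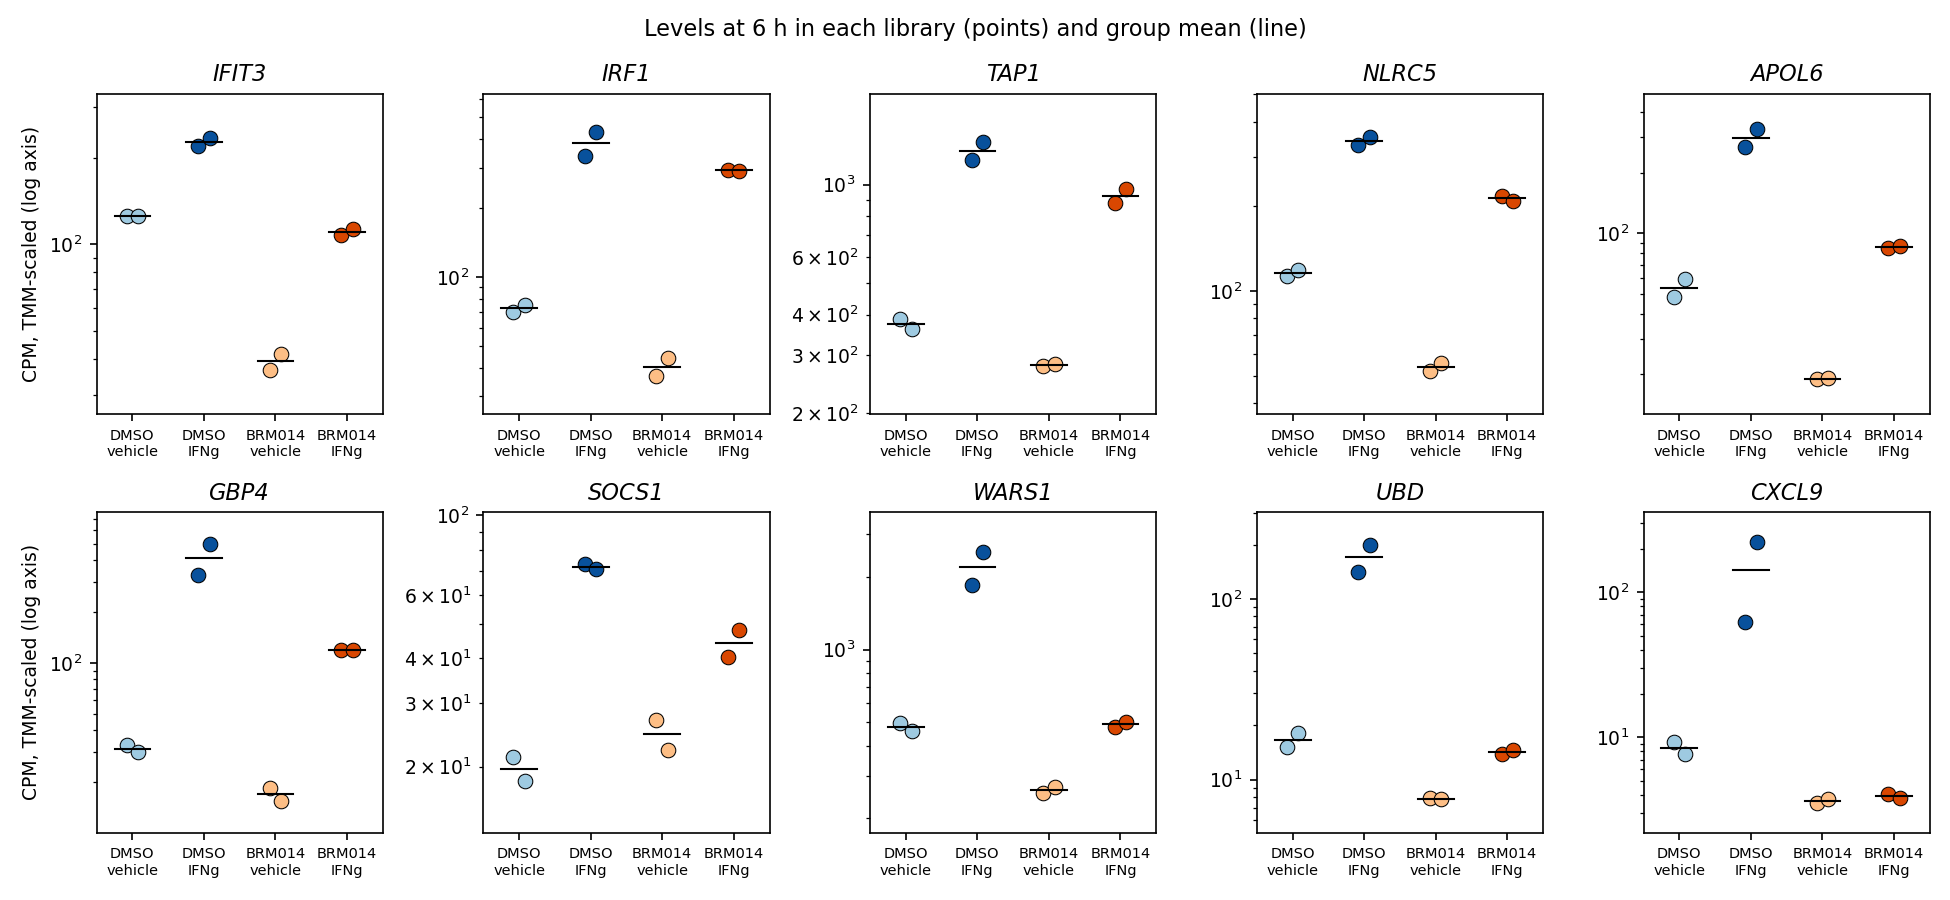
CPM (TMM-scaled, log axis) of 10 genes in the 4 groups at 6 h, with 1 point per library (2 per group) and a line at the group mean. TAP1, IRF1, NLRC5, WARS1 and UBD rise in both arms, and CXCL9 is called in DMSO only. With IFNg, TAP1, IRF1, WARS1, UBD and CXCL9 all lie lower under BRM014 than in DMSO.

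Genes of antigen presentation on MHC class I rose together under BRM014. TAP1, which carries peptides into the endoplasmic reticulum, was at 878 and 972 CPM with IFNg and at 279 and 283 CPM with vehicle. The groups did not overlap and differed 3.29-fold (log2 1.72 ± 0.06, edgeR adjusted p = 5.91e-18). In DMSO the rise was 3.39-fold, and the difference between the arms was log2 -0.04 ± 0.09 (adjusted p = 0.937). NLRC5, the transactivator of class I genes, was at 218 and 210 CPM with IFNg and at 52.3 and 55.6 CPM with vehicle. Its rise of log2 1.99 ± 0.07 compares with 1.56 in DMSO, a difference of 0.43 with an adjusted p of 0.0728 that passed with DESeq2 (0.0434), unfiltered (0.00114) and without DMSO IFNg replicate 2 (0.0219). TAP2, the other transporter subunit, rose by log2 1.02 and the immunoproteasome subunit PSMB9 by 1.07, each close to its DMSO value of 1.00 and 1.06. Of 21 class I presentation genes 12 rose and 0 fell, against 14 in DMSO, with list medians of 0.27 and 0.30. The nonclassical heavy chain HLA-E rose by log2 0.67, whereas HLA-B (0.03) and HLA-C (0.06) did not pass the test. Reads of HLA genes, and of TAP1 and PSMB9, whose annotated spans overlap, may be divided between genes by the estimated counts.

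Most genes of class II presentation did not pass the test. CIITA, the class II transactivator, was at 133 and 138 CPM with IFNg and at 119 and 134 CPM with vehicle (log2 0.10 ± 0.07, edgeR adjusted p = 0.738). The libraries with IFNg overlapped those with vehicle, and in DMSO the gene did not pass the test either (log2 0.04), at 299 to 370 CPM over its 4 libraries. Of 18 class II genes 1 rose under BRM014, the protease gene CTSS (log2 0.48 ± 0.05), and 3 rose in DMSO.

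Guanylate-binding proteins, GTPases that attack intracellular pathogens, rose from a level that was low under BRM014. GBP4 was at 118 and 119.6 CPM with IFNg and at 18.4 and 15.5 CPM with vehicle, a 7.06-fold rise (log2 2.82 ± 0.18, edgeR adjusted p = 2.73e-07). GBP5, an inflammasome activator, went from 1.69 and 1.19 CPM to 8.37 and 11.1 CPM (log2 2.77 ± 0.40), and GBP1 from 4.60 and 5.16 CPM to 22.4 and 22.2 CPM (log2 2.19 ± 0.37). No IFNg library of these 3 genes overlapped a vehicle library. In DMSO with IFNg, GBP4 reached 329.5 and 498 CPM, GBP5 66.3 and 107 CPM and GBP1 126 and 250.8 CPM, so that the BRM014 cells with IFNg stayed under the DMSO level of GBP1 without any IFNg (29.2 and 28.3 CPM). The GBP1 call ended without either BRM014 vehicle library (log2 2.11 without replicate 1 and 2.28 without replicate 2). Of the 6 members tested 4 rose, with a list median of 1.84 against 2.55 in DMSO. The members are close copies of one another, so their separate values are uncertain.

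All 4 tested genes of the APOL family of ion channel and lipid-binding proteins rose. APOL6 was at 84.8 and 86.5 CPM with IFNg and at 19.0 and 19.1 CPM with vehicle (log2 2.17 ± 0.13, edgeR adjusted p = 1.63e-09). APOL1, APOL2 and APOL3 rose by log2 1.26, 1.33 and 1.33, beside 1.14, 1.39 and 1.05 in DMSO. As with the GBP genes, levels stayed lower in BRM014: APOL6 with IFNg reached 267 and 329 CPM in DMSO.

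The antiviral interferon-stimulated genes formed the largest group, with 45 of 57 members rising and 0 falling under BRM014. In DMSO 49 rose, but 16 members passed 2-fold in BRM014 and 8 in DMSO, and the list medians were 0.57 and 0.48. Such counts are no test of a difference between the arms. The interaction test passed for 2 members, IFIT3 and OAS2, both with a larger log2 fold change under BRM014. In both genes that change started from a lower vehicle level than in DMSO. IFIT3, which blocks viral RNA translation, was at 108 and 113 CPM with IFNg and at 36.6 and 41.8 CPM with vehicle, a rise of log2 1.49 ± 0.07. In DMSO it went from 126 CPM in both vehicle libraries to 221 and 235 CPM. EPSTI1, whose GAS and ISRE matches are printed above, rose by log2 1.37 ± 0.07, from 23.3 and 24.0 CPM to 60.3 and 62.2 CPM. UBE2L6, the conjugating enzyme of ISG15, rose by 1.28 ± 0.06 and the antibody receptor and ubiquitin ligase TRIM21 by 1.20 ± 0.07. DTX3L and PARP9, which act as a pair on DNA damage and antiviral signals, rose by 1.34 ± 0.12 and 1.28 ± 0.09. Both are annotated next to each other with overlapping ends, and IFIT and OAS genes resemble their neighbours, so that single values within those families are uncertain.

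Among negative regulators of the pathway, 4 of 10 rose and 0 fell, with a list median of 0.09. SOCS1, a JAK inhibitor that IFNg itself induces, was at 40.4 and 48.1 CPM with IFNg and at 26.9 and 22.2 CPM with vehicle (log2 0.85 ± 0.14, edgeR adjusted p = 0.00171). Its rise in DMSO was larger at log2 1.88, from 21.2 and 18.2 CPM to 73.3 and 70.7 CPM. The difference of -1.03 passed the test (adjusted p = 0.0467) and failed it without any 1 of 5 of the 8 libraries: either DMSO vehicle library, DMSO IFNg replicate 1, BRM014 vehicle replicate 1 or BRM014 IFNg replicate 1 (values of -1.13 to -0.886, adjusted p from 0.0746 to 0.298). SOCS3 rose by log2 1.05 ± 0.16, from 4.15 and 4.02 CPM to 8.19 and 8.73 CPM, and USP18, which quenches type I interferon receptors, by 0.65 ± 0.10.

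Genes of cell death and the inflammasome included the DNA sensor AIM2, at 22.7 and 24.0 CPM with IFNg and at 7.33 and 7.99 CPM with vehicle (log2 1.60 ± 0.12, edgeR adjusted p = 3.3e-11). The nuclear DNA sensor IFI16 rose by 0.47 ± 0.05. In this list 7 of 21 rose, against 10 in DMSO. The NF-kB and inflammatory list had 5 of 29 members rising, led by the adhesion molecule ICAM1 (log2 0.62 ± 0.08) and the survival gene BCL2A1 (0.45 ± 0.08), with a list median of 0.03. The S phase list (20 genes), the G2 and M phase list (20) and the BAF subunit list (25) had 0 called members in either direction, with medians of -0.0835, -0.0490 and -0.0381 (edgeR). Over all tested genes 1.77% were called, so 0 calls in lists of this size do not set them apart from other genes.

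Outside these lists, the largest rise among genes that passed the test was that of HAPLN3, which encodes a link protein of the hyaluronan matrix. It was at 12.1 and 14.1 CPM with IFNg and at 0.778 and 0.737 CPM with vehicle, a 17.1-fold difference (log2 4.09 ± 0.38, edgeR adjusted p = 2.2e-06). In DMSO it reached 56.3 and 90.7 CPM. SLFN12L, a member of the Schlafen family, rose from 1.23 and 2.10 CPM to 8.25 and 7.43 CPM, and the actin-binding protein gene NEXN from 3.57 and 3.91 CPM to 12.7 and 11.01 CPM. PRICKLE1, of planar cell polarity, went from 1.69 and 1.02 CPM to 5.56 and 6.78 CPM (log2 2.20 ± 0.34, adjusted p = 5.71e-05). In DMSO it did not pass the test (log2 0.92, adjusted p = 0.19), and the difference between the arms did not pass either (1.28, adjusted p = 0.499). The antisense gene USP30-AS1 rose by log2 1.71 ± 0.24; no source used here tells if reads were counted by strand, so its reads and those of its partner cannot be told apart.

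On the deposited TPM scale, which is per length and allows genes to be compared, the level with IFNg under BRM014 was 545 ± 28.7 TPM for TAP1 (SD, n = 2) and 421 ± 22.7 TPM for WARS1. IRF1 was at 225 ± 4.13 TPM and HAPLN3 at 10.1 ± 0.446 TPM.

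The genes that fell did so by small amounts. BMF, a BH3-only death gene, was at 21.9 and 22.7 CPM with IFNg and at 35.2 and 34.6 CPM with vehicle (log2 -0.65 ± 0.07, edgeR adjusted p = 2.69e-07). SLC1A4, an amino acid exchanger, went from 148 and 154 CPM to 118 and 119 CPM (log2 -0.35 ± 0.05). PSMB8-AS1, antisense to PSMB8 and close to PSMB9 and TAP1, gave log2 -0.68 ± 0.11 and carries the same uncertainty of strand. The largest named fall, of the cell cycle regulator RGCC, was log2 -0.71 ± 0.16 and lost its call without BRM014 vehicle replicate 2 (-0.65) or BRM014 IFNg replicate 2 (-0.57). In the B cell identity list 3 of 30 members rose and 2 fell under BRM014, against 3 and 11 in DMSO. The difference passed the interaction test for 1 of them, CD22, a receptor that restrains B cell signals: it was at 58.1 and 60.2 CPM with IFNg and 61.5 and 64.4 CPM with vehicle under BRM014, but at 135 and 142 CPM against 193 and 186 CPM in DMSO (interaction log2 0.36, edgeR adjusted p = 0.0467). In bulk RNA, fewer cells of a type and less RNA per cell cannot be told apart.

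To set the remaining response beside the uninhibited one, both arms were compared over all genes. Genes that rose in both arms numbered 190, which is 83.3% of those rising under BRM014 and 36.1% of those rising in DMSO. For the falling genes 19 were shared, 46.3% of the BRM014 list and 3.98% of the DMSO list. Being called in 1 arm and not in the other is no test of a difference. The interaction of IFNg and BRM014 passed the test for 30 genes (0.198%), with a smaller or more negative response under BRM014 in 23 (0.151%) and a larger or less negative one in 7 (0.0461%). It was called for 18 of the genes that rose in DMSO without being called under BRM014, for 10 that rose in both and for 1 that rose under BRM014 without being called in DMSO. This count depended on the DMSO IFNg group, whose libraries differ: it was 60 without replicate 1 and 163 without replicate 2, and down to 10 without BRM014 IFNg replicate 1.

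The size of the remaining response was read from 130 genes raised over 2-fold in the panel (0.824%), whose libraries are not used in either arm, and of which 121 were tested here. Their median log2 response was 0.88 under BRM014 and 1.19 in DMSO. Of the 121, 53 rose under BRM014 and 94 in DMSO, and 39 and 70 did so by over 2-fold. The estimate was smaller under BRM014 than in DMSO for 79 of them (65.3%, against 51.35% of all tested genes). The least-squares slope through 0 of the BRM014 log2 fold changes on the DMSO log2 fold changes was 0.602. This slope gives the most weight to genes with large estimates in DMSO, some of them imprecise, and is not a share that holds for each gene. Leaving out 1 library at a time gave slopes of 0.494 (without DMSO vehicle replicate 2) to 0.679 (without DMSO IFNg replicate 2). Tested against an equal response in both arms, not against that slope, the interaction passed for 8 with a smaller response under BRM014 and for 2 with a larger one.

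Levels showed a second feature of the same 121 genes. With vehicle, both BRM014 libraries lay below both DMSO libraries for 89 of them (73.6%), where 33.0% of all tested genes did so, and above for 8 (6.61%, against 34.2% of all). With IFNg they lay below for 110 (90.9%, against 32.3% of all) and above for 2 (1.65%, against 32.3%). APOL6, for one, rose 4.49-fold with BRM014 and 5.53-fold with DMSO, at levels that did not overlap between the arms.

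**Figure D2:**
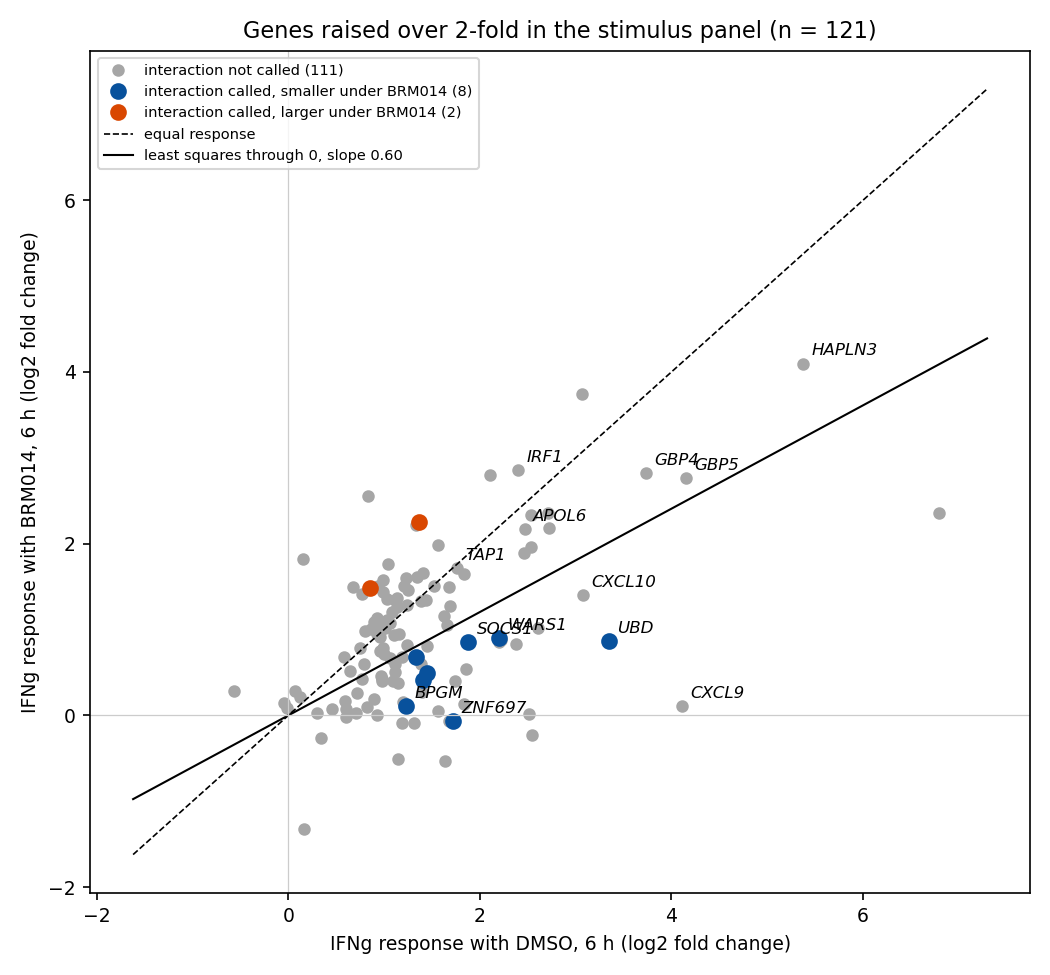
Log2 fold change of IFNg against vehicle at 6 h with DMSO (x axis) and with BRM014 (y axis) for the 121 panel genes, 1 point per gene, with the line of equal response (dashed) and the fitted slope of 0.60 (solid). TAP1 lies next to the dashed line, IRF1 above it, and UBD and CXCL9 far below.

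Among the named genes whose interaction was called, the 4 most negative values were those of UBD, ZNF697, WARS1 and BPGM. UBD, which encodes the ubiquitin-like protein FAT10, was at 13.9 and 14.7 CPM with IFNg and at 7.91 and 7.76 CPM with vehicle under BRM014, while in DMSO it went from 15.1 and 18.1 CPM to 141 and 198 CPM. The groups did not overlap in either arm. The interaction was log2 -2.48 (edgeR adjusted p = 0.000291), a call that ended when only the compared groups were fitted (adjusted p = 0.0717). The rise of 0.86 under BRM014 passed the test (adjusted p = 0.0414) but not without any 1 of the 4 libraries (BRM014 vehicle replicates 1 and 2, 0.88 and 0.85; BRM014 IFNg replicates 1 and 2, 0.90 and 0.82). WARS1, the tryptophan tRNA ligase, rose to 479 and 502 CPM from 254 and 271 CPM under BRM014, and in DMSO to 1852 and 2546 CPM from 497 and 459 CPM (interaction -1.30, adjusted p = 0.000391). That call also ended when only the compared groups were fitted (adjusted p = 0.304). The BRM014 cells with IFNg thus held WARS1 near the DMSO vehicle level. ZNF697, a zinc finger gene, showed no call under BRM014 (6.15 and 6.45 CPM against 6.36 and 6.86 CPM) and rose from 4.21 and 5.92 CPM to 16.7 and 17.3 CPM in DMSO (interaction -1.79, adjusted p = 0.000117). BPGM, an enzyme of red cell glycolysis, did likewise, at 28.0 and 24.6 CPM against 25.3 and 23.8 CPM under BRM014 (interaction -1.12, adjusted p = 0.000391).

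Of the 3 CXCR3 ligands, chemokines that draw T cells, the 2 that were tested rose in DMSO and were not called under BRM014. CXCL11 had too few counts to be tested (5 and 4 with IFNg, 0 and 1 with vehicle under BRM014). CXCL9 was at 4.04 and 3.78 CPM with IFNg and at 3.502 and 3.739 CPM with vehicle under BRM014 (log2 0.11 ± 0.81, edgeR adjusted p = 0.989). In DMSO it rose from 9.28 and 7.66 CPM to 62.1 and 224 CPM, with replicate 2 far above replicate 1. The interaction was log2 -4.00 with an adjusted p of 0.202; it was -4.63 without DMSO IFNg replicate 1 (6.27e-16) and -2.78 without replicate 2 (8.97e-10), and DESeq2 gave 5.41e-08. CXCL10 was at 3.40 and 3.32 CPM against 1.10 and 1.42 CPM under BRM014, with no overlap and no call (log2 1.40, adjusted p = 0.692; 0.00134 when only the compared groups were fitted). GBP4 gave an interaction of -0.92 (adjusted p = 0.25) that likewise passed without DMSO IFNg replicate 1 (-1.18) and without replicate 2 (-0.58).

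In the other direction, IFIT3 had an interaction of log2 0.63 (edgeR adjusted p = 0.000781), called under every alternative tried. OAS2, which makes the activator of RNase L, was at 146 and 135 CPM with IFNg and 70.6 and 79.5 CPM with vehicle under BRM014, and at 409.5 and 465 CPM against 353 and 312 CPM in DMSO, an interaction of 0.51. Both OAS2 groups of the BRM014 arm lay below both DMSO groups. The OAS2 interaction lost its call without DMSO vehicle replicate 1 (0.41), BRM014 vehicle replicate 1 (0.42) or BRM014 IFNg replicate 1 (0.45), and when only the compared groups were fitted (adjusted p = 0.263).

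The course over time under BRM014 was traced with the libraries taken 1 h after IFNg. At 1 h 16 genes rose (0.105%) and 0 fell (0.00%; edgeR, 448 genes at an unadjusted p under 0.05), with 5 over 2-fold (0.0329%); the count was 10 without BRM014 IFNg 1 h replicate 1. IRF1 was at 587 and 598 CPM with IFNg and at 69.8 and 38.4 CPM with vehicle at 1 h, a rise of log2 3.46 (adjusted p = 8.93e-07; 1 when only the compared groups were fitted), and no library overlapped. BCL6, a transcriptional repressor of germinal centre B cells, rose from 0.447 and 0.287 CPM to 6.00 and 5.39 CPM (log2 3.94), SOCS3 from 10.6 and 9.86 CPM to 30.4 and 29.4 CPM (1.55) and SOCS1 from 25.6 and 23.3 CPM to 69.4 and 55.8 CPM (1.35). ICAM1 rose by log2 1.00 and TAP1 by 0.31 (adjusted p = 0.0237). Of the lists, feedback inhibitors (10 tested), interferon regulatory factors (9) and B cell identity (30) each had 2 members rising at 1 h. Guanylate-binding proteins (6 tested) and APOL genes (4) had 0. With 0.105% of all tested genes rising, 0 in lists this small does not set those families apart from other genes.

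Between 1 h and 6 h under BRM014 the response grew for 128 genes (0.843%) and moved down for 6 (0.0395%), by the test of the difference between the times. NLRC5 did not pass the test at 1 h (115 and 121 CPM with IFNg against 139 and 112 CPM with vehicle, log2 -0.09) and had gained log2 2.08 at 6 h (edgeR adjusted p = 1.37e-14). GBP4 gained 2.62 and TAP1 1.41. HAPLN3 gained 3.62, a call that ended without BRM014 vehicle 1 h replicate 1 (3.09). IRF1 (-0.61, adjusted p = 0.701), SOCS1 (-0.50, adjusted p = 0.568) and SOCS3 (-0.50, adjusted p = 0.547) were estimated lower at 6 h than at 1 h, and these differences did not pass.

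**Figure D3:**
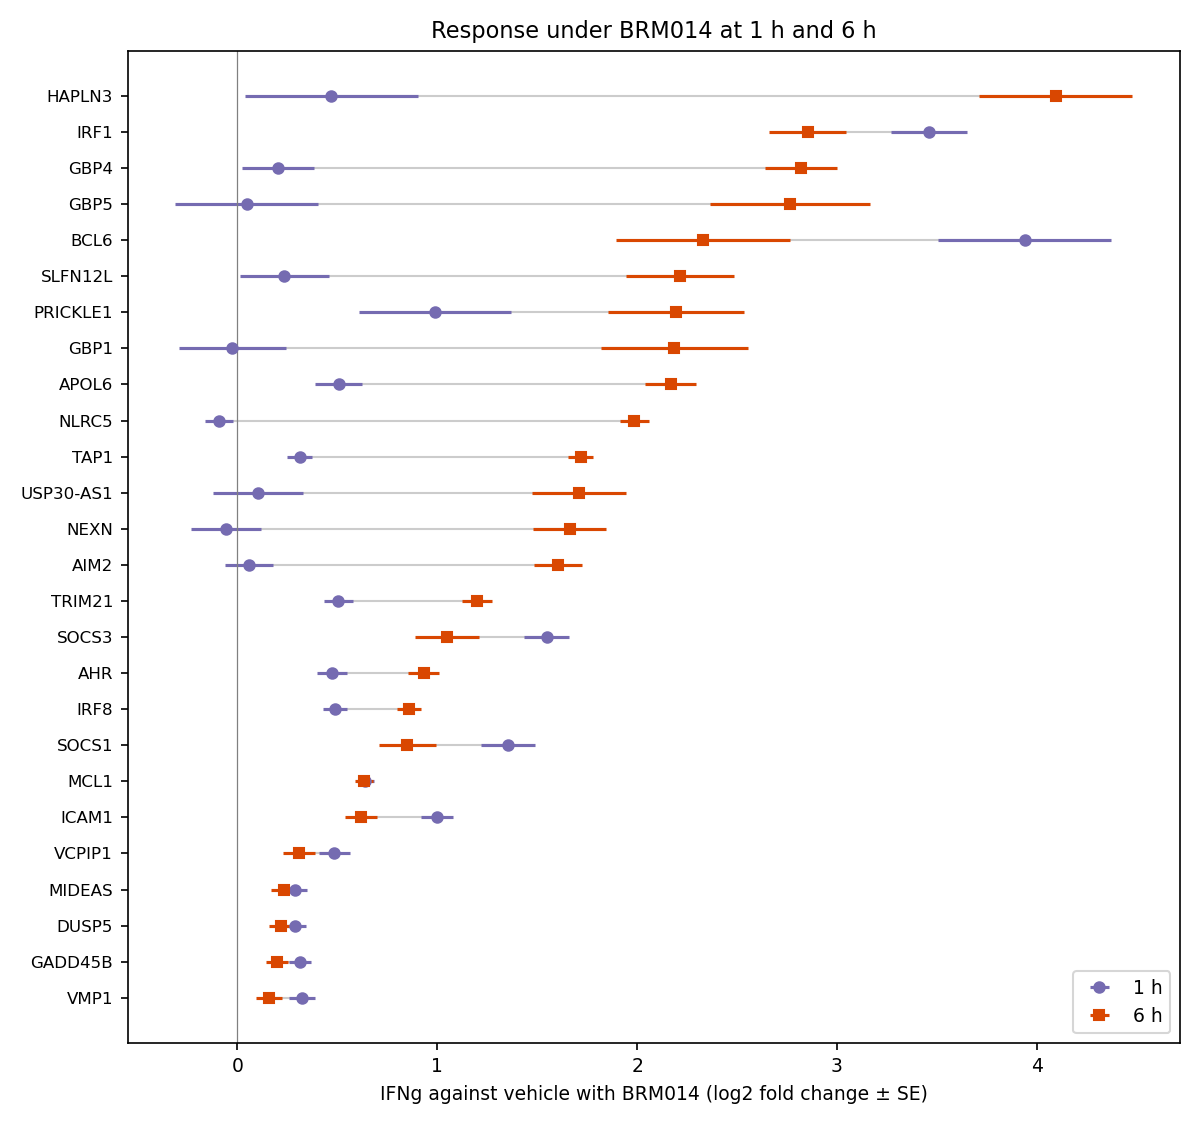
Log2 fold change ± SE of IFNg against vehicle under BRM014 at 1 h (circles) and 6 h (squares) for the genes with a symbol called at 1 h and the largest named rises at 6 h, 2 libraries per group. IRF1, BCL6, SOCS1, SOCS3 and ICAM1 are already raised at 1 h, and NLRC5 and GBP1 are near 0 at 1 h and raised at 6 h.

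The promoters of the genes that rose under BRM014 were read for the motifs shown in the sequences above. RefSeq windows of 300 bases (250 before to 50 after a start) were found for 10943 of the 15183 tested genes and held a GAS or ISRE match in 12% of them. Among the 169 genes with a window that rose under BRM014 the share was 52.7% (89 genes), and among those rising over 2-fold 70.0% (28 of 40). In DMSO the shares were 31.0% (126 of 406) and 45.8% (27 of 59). Of the genes that fell under BRM014 9.68% held a match (3 of 31), and of those with a smaller response by the interaction test 15% (3 of 20). Over single windows, ISRE matches were in 44.6% of those of genes rising over 2-fold under BRM014 and in 3.17% of those of all tested genes, and GAS matches in 17.9% and 6.33%. Over the whole table of 35116 windows 7.66% held a GAS and 3.57% an ISRE match. In the printed windows the IRF1 match lies 124 to 116 bases before the start, the TAP1 matches 134 to 119 bases and the CXCL9 match 171 to 162 bases before it. A match describes the letters and does not show that a factor binds. Lists of the same arm share genes, and so do the arms: 190 of the 228 genes rising under BRM014 also rose in DMSO. The difference in shares between the arms was not tested.

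**Figure D4:**
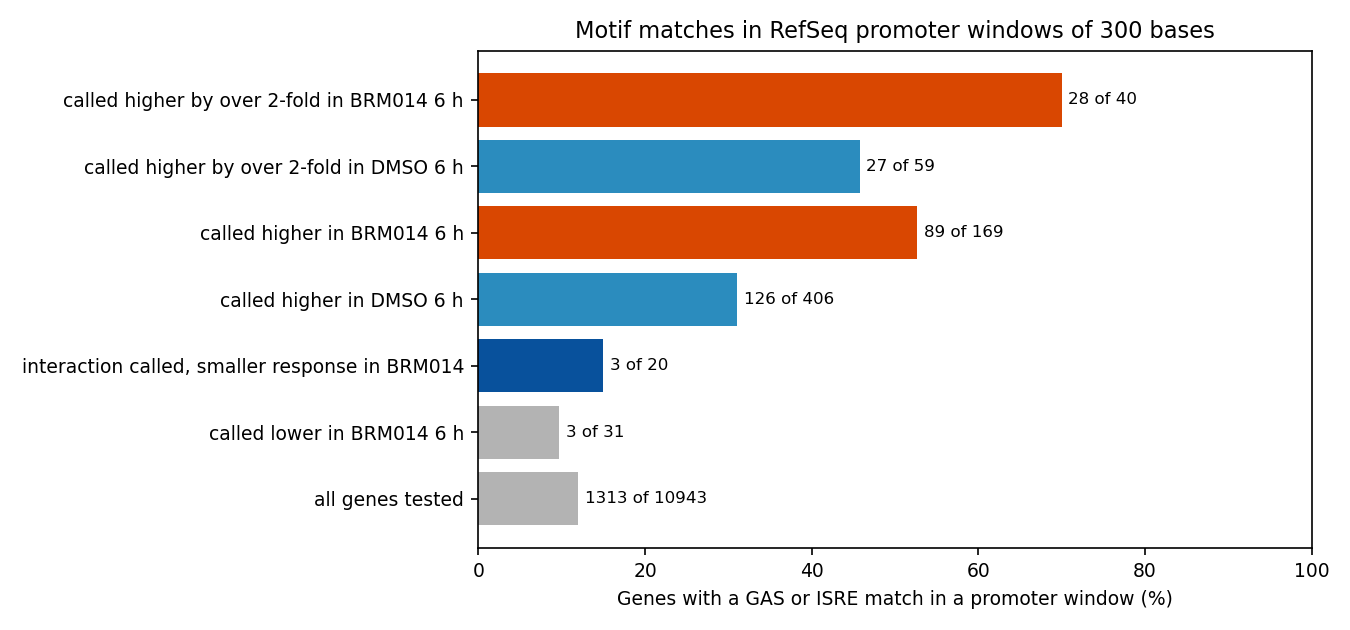
Share of genes (%) with at least 1 GAS or ISRE match in a RefSeq promoter window, by set of genes, with the counts of genes beside each bar. The sets rising under BRM014 (orange) reach 52.7% and 70.0%, those rising in DMSO (light blue) 31.0% and 45.8%, the set with a smaller response under BRM014 (dark blue) 15%, and the falling set and all tested genes (grey) 9.68% and 12%.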

How the data were processed

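RNA of GM12878 was sequenced from polyadenylated, strand-marked libraries, per the labels' protocols. The deposited files hold RSEM expected counts per gene, rounded here to whole numbers, and TPM values, both made by the authors, per the file headers. STAR, RSEM and the build hg38 are listed in the submitters' processing notes, without versions or annotation. Of 59526 identifiers, 58780 are Ensembl genes, 41937 of which matched a GENCODE 44 symbol; the other 746 held 0 counts. Between 4.15% and 4.66% of the values were not whole.

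Pretreatment libraries (24, in 12 groups) were fitted together with edgeR 4.0.16 in R 4.3.3 (filterByExpr, TMM factors 0.966 to 1.06, robust quasi-likelihood, 2-sided, residual degrees of freedom 12). Panel libraries (15, in 8 groups) had their own fit of 15775 genes, IFNg against the mean of both vehicles. SE was taken from each fold change and its F statistic. No replicate pair agreed within sampling noise (lowest chi-square per degree of freedom 2.52). The common biological coefficient of variation was 0.0490.

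Alternatives were DESeq2 1.42.0 and its size factors, unfiltered genes, replicate number as a term, fitting only the compared groups, other gene sets for the slope and leaving out each library. On simulated data (14876 genes) the 6 h BRM014 test recovered 73.0%, 85.3% and 98.6% of 1.5-, 2- and 4-fold changes, with 3 false of 175 calls. The interaction test recovered 50.8%, 76.5% and 92.8%, with 5 false of 153. Whether these rates hold for the sequenced libraries, whose replicate pairs differed in spread, was not tested. At 6 h the chi-square per degree of freedom was 3.29 (vehicle) and 3.35 (IFNg) under BRM014, and 7.28 and 5.94 in DMSO.

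Named genes are the 14 largest rises and 8 largest falls at 6 h (at least 5 CPM, no overlap), the 8 lowest and 6 highest called interactions, the 6 interactions nearest 0 among large panel rises, 4 genes per time contrast and direction, up to 4 per list by adjusted p, and a fixed set of pathway genes; the text leaves some out, and some results are not reported here. Genes named beside counts of 5 or fewer, and other members of the lists, were chosen after their values were seen. The comparison, lists and rules were chosen with earlier results of these data known.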

Additional observations from a re-analysis of the deposited data

Results flagged for a closer look

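The effect of IFNg differed between the BRM014 and DMSO arms by an interaction test (edgeR, adjusted p under 0.05) for 30 genes at 6 h. Of the named ones the interaction was negative, in log2, for UBD (-2.48), ZNF697 (-1.79), WARS1 (-1.30), BPGM (-1.12), SOCS1 (-1.03), RHOBTB3 (-0.99) and RNF24 (-0.96). It was positive for TRANK1 (0.66), IFIT3 (0.63), OAS2 (0.51), RIPOR2 (0.50) and TRIM56 (0.49). Leaving out 1 library ended the call for SOCS1 (5 of the 8 libraries), RHOBTB3 (5), TRANK1 (2), OAS2 (3), RIPOR2 (4) and TRIM56 (6). It did so for none of UBD, ZNF697, WARS1, BPGM, RNF24 and IFIT3. Fitting only the compared groups ended the call for UBD, WARS1, RHOBTB3, TRANK1, OAS2, RIPOR2 and TRIM56. The called interactions of IRF5 and CD22 were not tried under these alternatives.

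The effect of IFNg under BRM014 also differed between 1 h and 6 h, for 134 genes by the test of that difference. Among the named genes it grew for HAPLN3 (3.62), GBP5 (2.72) and GBP4 (2.62) and moved down for BMF (-0.70), PSMB8-AS1 (-0.68) and SLC1A4 (-0.42). Leaving out 1 library ended the call for GBP5 (7 of 8), PSMB8-AS1 (3) and HAPLN3 (1). Groups of 2 libraries are too small for a test of a library far from the others.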

How the results depend on the processing

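No result tried changed direction. The 269 genes called under BRM014 at 6 h were 268 with DESeq2 size factors, 240 with DESeq2, 344 with no filter and 470 when only the compared groups were fitted, and 170 to 211 with 1 library left out. The 1005 genes of the DMSO arm became 349 with only the compared groups and 663 to 992 with 1 library left out. The 30 interactions became 50 with DESeq2, 84 unfiltered, 11 with only the compared groups and 10 to 163 with 1 library left out. The 16 genes at 1 h became 27 unfiltered, 24 with only the compared groups and 10 to 14 with 1 library left out; the 134 genes that differed between times became 98 to 129. The slope of 0.602 was 0.537 over the 50 largest panel rises, 0.528 over genes raised over 2-fold in the DMSO arm, and 0.494 to 0.679 with 1 library left out. Replicate numbers did not pair the libraries: replicate differences correlated at -0.0681 to 0.0709 between groups, and with the replicate block the counts were 285, 1042, 34, 17 and 138. For single named genes, 52 of 68 results at 6 h under BRM014, 11 of 24 interactions, 3 of 4 at 1 h and 3 of 6 between times kept their side of the threshold under every alternative. With 2 libraries per group, small effects may be missed, and the cause of each change of count was not tested.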
